A study of Sus scrofa with 24 samples.

Results

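The genes described here are 10 members of the pathways by which a cell takes up arginine and turns it into nitric oxide or polyamines: SLC7A1, SLC7A2, NOS1, NOS2, NOS3, DDAH1, DDAH2, ODC1, AMD1 and SAT1. They were chosen by gene symbol from the 20674 genes of the deposited count table, and all 10 were found there. RNA came from ileum and colon of sows (female pigs, Sus scrofa), each kept from breeding over the 114 days of gestation on 1 of 4 diets. LF, the low-fibre feed, held 3.73% crude fibre, and LN was LF with 0.05% N-carbamylglutamate (NCG) added. HF, the high-fibre feed, held 7.46% crude fibre, and HN was HF with the same 0.05% NCG. Each diet was fed to 100 sows, and each combination of tissue and diet had 3 libraries, which makes 24. The labels give neither breed nor age, and do not say whether the 3 libraries of a group came from separate sows, so p-values here reflect only how much the labelled libraries of a group differ, which may be technical.

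Arginine enters most cells through cationic amino acid transporters such as SLC7A1 and SLC7A2. Nitric oxide synthases oxidise arginine to citrulline and nitric oxide: NOS1 is the neuronal enzyme, NOS2 the inducible enzyme of inflamed epithelium and macrophages, and NOS3 the enzyme of blood vessel lining. DDAH1 and DDAH2 belong to the family that removes methylated arginines, which inhibit these synthases. Arginine can also be split by arginase to ornithine, from which ODC1 makes putrescine. AMD1 supplies the aminopropyl groups that extend putrescine to spermidine and spermine, and SAT1 acetylates these so that they can be broken down or exported. In the gut wall, neuronal nitric oxide relaxes smooth muscle, and polyamines support the renewal of the epithelium. NCG mimics N-acetylglutamate, which switches on the first enzyme of the urea cycle, and is fed to raise arginine made in the gut.

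Total counts per library were 11951729 to 19896941 for the ileum and 14843272 to 18575695 for the colon. Several libraries stood apart from their labelled group. Of the 12 libraries labelled ileum, 3 held the ileal bile acid genes at high levels, with FABP6 at 8171 CPM (read counts scaled to the library size) in LF 1, 4229 in HF 2 and 767 in HN 2, and SLC10A2 at 218, 290 and 24.5. In the other 9, FABP6 was at 0 to 37.3 CPM and SLC10A2 at 0 to 0.753 CPM, while APOA4, an apolipoprotein of absorptive cells of the upper small intestine, was at 150 to 1319 CPM. The ileum label was therefore not borne out by these defining markers in 9 libraries. Ileum LN 3 had an adipocyte marker sum of 5158 CPM, against 25.9 to 130 in the other ileum libraries, and no counts of the neuropeptide VIP. In the colon, SLC26A3, a chloride and bicarbonate exchanger of the surface epithelium, was at 28.3 CPM in LF 2 and 47.2 CPM in HN 1, against 306 to 5153 in the other 10. Colon HN 1 also held the enterocyte marker APOB at 48.7 CPM and APOA4 at 5.69 CPM. In the other colon libraries these were at most 2.23 and 0.652 CPM. FABP6 and SLC10A2, at 0.0678 and 0 CPM, were not raised in HN 1. The summed CPM of 10 smooth muscle markers ran from 1463 to 106856 in the colon and from 1089 to 47179 in the ileum. In bulk RNA, fewer cells of a type and less RNA per cell cannot be told apart.

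All 10 genes passed the filter on low counts in every model. Compared on the deposited FPKM scale, which divides by gene length, their rank order was the same in both tissues. The lengths ran from 568 bases for SAT1 to 12932 for SLC7A1, and order and gaps depend on them. In CPM the ileum medians were 360 for SAT1 and 135 for ODC1, and SLC7A1, at 42.7, lay above DDAH2, at 9.20. On the FPKM scale SAT1 had by far the highest level, with a median of 667 FPKM over the 12 ileum libraries and 630 over the 12 colon libraries. ODC1 followed at 68.6 and 46.3 FPKM, AMD1 at 26.3 and 29.9, DDAH1 at 20.9 and 20.2, and DDAH2 at 5.15 and 11.7. The transporters and synthases were lower: SLC7A1 had medians of 3.17 and 2.09 FPKM, NOS3 1.58 and 2.01, and SLC7A2 1.03 and 1.86. NOS2 at 0.525 and 1.45 FPKM and NOS1 at 0.210 and 0.494 FPKM came last. NOS1 rested on as few as 4 counts in a library and NOS2 on as few as 15, so their lowest values carry the largest counting error.

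**Figure D1:**
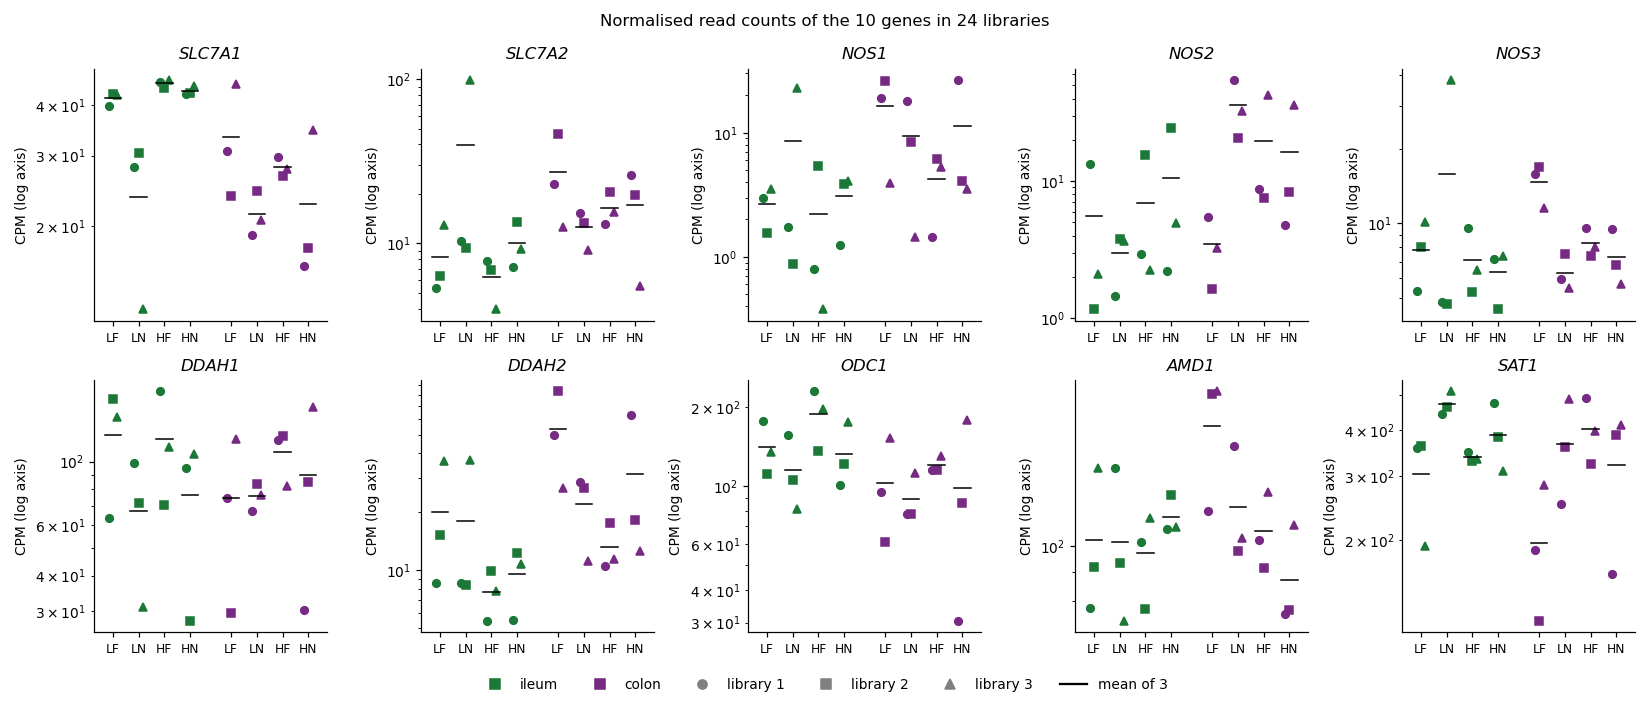
TMM-normalised CPM (log axis) of each of the 10 genes in every library, by tissue and diet, with points for the 3 libraries and a line for their mean. SLC7A2, NOS1 and NOS3 each have their highest ileum value in LN 3 (98.7, 23.1 and 38.2 CPM), and SLC7A1 has its lowest there (12.4 CPM).

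SLC7A1 (gene ID 503545, Sscrofa11.1 chromosome 11, 6538053 to 6604654, minus strand) was lower in the colon than in the ileum. It averaged 38.5 ± 10.03 CPM (SD, n = 12) in the ileum and 26.4 ± 8.19 CPM (n = 12) in the colon. In the ileum it was 39.9, 42.6 and 42.3 CPM on LF, 28.1, 30.4 and 12.4 on LN, 45.6, 44.1 and 46.2 on HF, and 42.7, 42.9 and 44.8 on HN. All 3 LN libraries lay below all 9 libraries of the other diets, which spanned only 39.9 to 46.2 CPM. In the colon SLC7A1 was 30.8, 23.8 and 45.3 CPM on LF, 19.1, 24.4 and 20.7 on LN, 29.7, 26.8 and 27.9 on HF, and 15.9, 17.7 and 34.7 on HN. The colon diets overlapped, except that LN lay below HF.

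SLC7A2 (gene ID 100037298, chromosome 17, 5191973 to 5271849, plus strand), the transporter whose variants include an inducible form found in macrophages and other cells, had 1 ileum library far above the rest. It was 5.33, 6.34 and 13.0 CPM on LF, 10.3, 9.35 and 98.7 on LN, 7.78, 6.84 and 3.95 on HF, and 7.20, 13.5 and 9.26 on HN. The value of 98.7 CPM was LN 3, the library with the high adipocyte sum; the other 11 ileum libraries lay between 3.95 and 13.5 CPM. In the colon SLC7A2 was 23.05, 46.5 and 12.5 CPM on LF, 15.3, 13.3 and 9.15 on LN, 13.2, 20.6 and 15.6 on HF, and 26.1, 19.7 and 5.49 on HN. Its 2 highest colon values, in LF 2 and HN 1, were in the libraries with SLC26A3 under 100 CPM, and the 4 diets overlapped.

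NOS1 (gene ID 100520934, chromosome 14, 35112898 to 35299297, plus strand) was highest in colon libraries rich in smooth muscle and enteric neuron transcripts and in 1 ileum library. In the ileum it was 2.97, 1.55 and 3.50 CPM on LF, 1.73, 0.87 and 23.1 on LN, 0.80, 5.41 and 0.38 on HF, and 1.24, 3.88 and 4.11 on HN. Apart from LN 3 at 23.1 CPM, the ileum libraries lay at 5.41 CPM or less. In the colon NOS1 was 19.1, 26.0 and 3.91 CPM on LF, 18.1, 8.39 and 1.45 on LN, 1.44, 6.09 and 5.26 on HF, and 26.6, 4.10 and 3.54 on HN. The 4 highest colon values, in LF 1, LF 2, LN 1 and HN 1, were in the 4 colon libraries with the highest smooth muscle sums, 83597, 106856, 58202 and 97863 CPM. These 4 also had the highest colon sums of enteric neuron markers, 421, 348, 240 and 342 CPM. The 2 marker sets therefore cannot be told apart in the colon. Ileum LF 3, with a smooth muscle sum of 47179 CPM, held NOS1 at only 3.50 CPM. Ileum LN 3 had a smooth muscle sum of 9822 CPM, below those 4 colon libraries but above the ileum median of 1853 CPM. Its summed CPM of the 9 enteric neuron markers found in the table, 15.1, was the lowest of the 12 ileum libraries.

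NOS2 (gene ID 396859, chromosome 12, 44174944 to 44219875, minus strand) was 13.4, 1.16 and 2.11 CPM on LF, 1.46, 3.77 and 3.69 on LN, 2.97, 15.5 and 2.26 on HF, and 2.22, 24.3 and 4.98 on HN in the ileum. The 3 values above 10 CPM were LF 1, HF 2 and HN 2, the same 3 libraries that held the ileal genes FABP6 and SLC10A2. These 3 also had the highest ileum sums of 5 B cell markers (394, 449 and 907 CPM, against 4.47 to 223 in the other 9) and of 10 T and NK cell markers (897, 773 and 996 CPM, against 155 to 598). Their sums of 9 macrophage markers, 1113, 1306 and 1206 CPM, overlapped with the 371 to 1180 CPM of the others. The part of these cells in the NOS2 level was not tested. In the colon NOS2 was 5.48, 1.64 and 3.26 CPM on LF, 54.6, 20.5 and 32.5 on LN, 8.79, 7.58 and 42.8 on HF, and 4.81, 8.39 and 35.9 on HN. LF lay below both LN and HF without overlap, while HN overlapped with all 3 other diets. The span in the colon, from 1.64 to 54.6 CPM, was 33.3-fold, the widest of the 10 genes there.

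NOS3 (gene ID 397557, chromosome 18, 6209218 to 6228912, minus strand) had its highest values in libraries with the highest endothelial marker sums. In the ileum it was 5.33, 8.04 and 10.1 CPM on LF, 4.78, 4.71 and 38.2 on LN, 9.55, 5.29 and 6.50 on HF, and 7.20, 4.48 and 7.41 on HN. The 38.2 CPM of LN 3 coincided with a sum of 9 endothelial markers of 1428 CPM, against 356 to 599 CPM in the other 11 ileum libraries. In the colon NOS3 was 15.9, 17.01 and 11.5 CPM on LF, 5.95, 7.53 and 5.47 on LN, 9.55, 7.41 and 8.06 on HF, and 9.49, 6.79 and 5.68 on HN. All 3 LF libraries lay above all 9 others, and the endothelial sums of LF 1 and LF 2, 791 and 914 CPM, were also the highest of the colon.

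**Figure D2:**
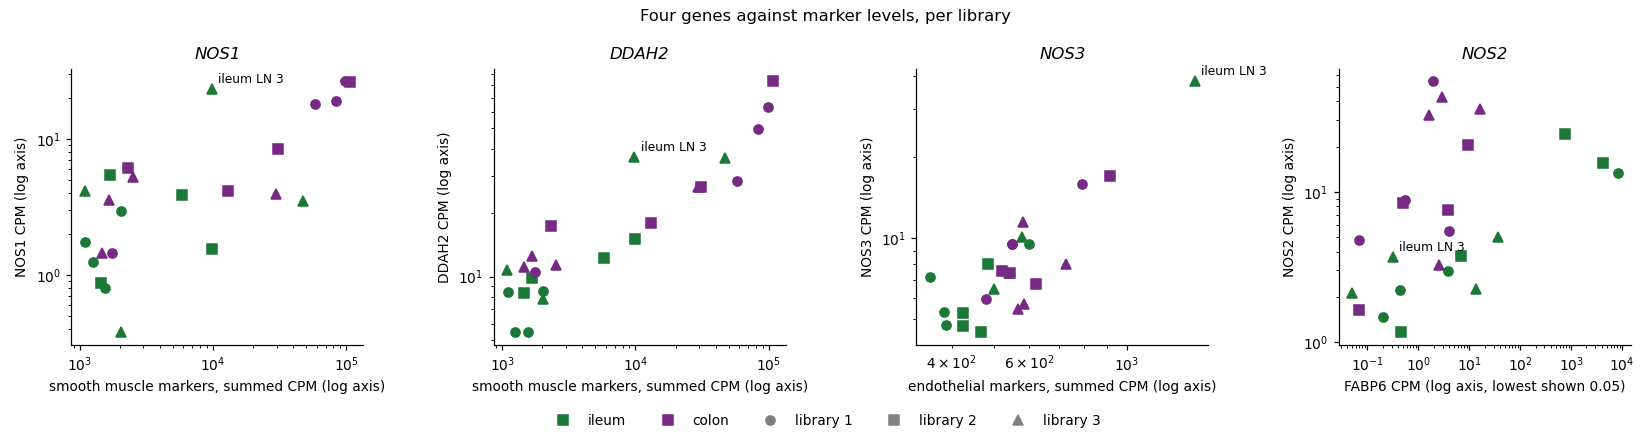
Levels of NOS1 and DDAH2 against the smooth muscle marker sum, of NOS3 against the endothelial marker sum, and of NOS2 against FABP6, in CPM on log axes, with 1 point per library coloured by tissue. The ileum libraries with FABP6 at 767 to 8171 CPM hold NOS2 at 13.4 to 24.3 CPM, and ileum LN 3 has an endothelial sum of 1428 CPM and 38.2 CPM of NOS3.

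DDAH2 (gene ID 110261496, chromosome 7, 23838993 to 23842514, minus strand) was higher in the colon, at 29.9 ± 23.5 CPM (SD, n = 12), than in the ileum, at 13.8 ± 11.0 CPM (n = 12). In the ileum it was 8.58, 15.1 and 36.3 CPM on LF, 8.50, 8.34 and 36.8 on LN, 5.46, 9.82 and 7.81 on HF, and 5.51, 12.2 and 10.7 on HN. The highest ileum values were LF 3, the ileum library with the largest smooth muscle sum (47179 CPM), and LN 3. In the colon DDAH2 was 49.6, 83.6 and 26.4 CPM on LF, 28.3, 26.4 and 11.2 on LN, 10.5, 17.4 and 11.3 on HF, and 63.0, 18.0 and 12.6 on HN. Its 4 highest colon values were in LF 1, LF 2, HN 1 and LN 1, the same libraries as for NOS1 and for the smooth muscle sum. LF lay above HF without overlap, and the smooth muscle sums of the colon HF libraries were among the low ones, at 1761 to 2515 CPM.

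DDAH1 (gene ID 100153814, chromosome 4, 130485305 to 130617534, plus strand) had the opposite low libraries. In the ileum it ran from 27.8 CPM in HN 2 to 176 CPM in HF 1, and ileum LN 3 was the next lowest at 30.9 CPM. In the colon it ran from 29.7 CPM in LF 2 and 30.4 CPM in HN 1 to 155 CPM in HN 3. The 2 low colon libraries were those with SLC26A3 under 100 CPM. Diet means lay between 67.1 CPM (ileum LN) and 124 CPM (ileum LF), with SDs of 8.35 to 62.6 CPM, and the diets overlapped in both tissues.

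The polyamine genes had higher FPKM medians than the synthases in both tissues. ODC1 (gene ID 414408, chromosome 3, 126087013 to 126095644, plus strand) averaged 141 ± 33.6 CPM on LF, 115 ± 38.4 on LN, 188 ± 47.7 on HF and 133 ± 38.7 on HN in the ileum (SD, n = 3 each). In the colon the ODC1 means were 103 ± 45.9, 89.3 ± 19.5, 120 ± 8.70 and 98.4 ± 75.0 CPM in the same order. The HF mean was the highest in both tissues, and it overlapped with LF in both. The lowest ODC1 level of all, 30.5 CPM, was colon HN 1, with 61.3 CPM in colon LF 2 next, again the libraries with little SLC26A3.

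AMD1 (gene ID 100155925, chromosome 1, 76839448 to 76863745, plus strand) had ileum diet means of 97.1 to 113 CPM, with overlap among all 4 diets. In the colon it was 116, 187 and 189 CPM on LF, 151, 98.0 and 104 on LN, 103, 91.6 and 125 on HF, and 75.8, 76.8 and 109 on HN. LF lay above HN without overlap and overlapped with LN and HF.

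SAT1 (gene ID 397645, chromosome X, 19908037 to 19910553, plus strand) was 358, 362 and 193 CPM on LF, 443, 463 and 512 on LN, 349, 329 and 332 on HF, and 474, 383 and 309 on HN in the ileum. LN lay above LF and HF without overlap, and HN overlapped with all 3 other diets. In the colon SAT1 was 187, 120 and 283 CPM on LF, 250, 360 and 487 on LN, 491, 323 and 398 on HF, and 161, 387 and 414 on HN. Here LF lay below HF without overlap, and its lowest value, 120 CPM, was LF 2.

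Between tissues, 2 of the 10 genes passed the test, against 28.4% of all 15675 genes tested (12.5% higher and 15.9% lower in the colon). By edgeR's quasi-likelihood test with Benjamini-Hochberg adjustment over all genes, SLC7A1 fell by 0.55 ± 0.15 (log2, SE) in the colon against the ileum, a fold of 0.685, with an adjusted p of 0.0116. DDAH2 rose by 1.03 ± 0.34 on the log2 scale, with an adjusted p of 0.0301. The share called was near the background. NOS1 was 1.36 ± 0.60 and NOS2 1.21 ± 0.53 higher on the log2 scale in the colon, both with an adjusted p of 0.0959. With smooth muscle and enterocyte marker levels in the model their signs turned, NOS1 to -0.89 and NOS2 to -1.24, with adjusted edgeR p values of 0.773 and 0.640. The enterocyte level, as mean log2 CPM, did not overlap between tissues. It was 5.30 to 10.22 in the ileum and 0.718 to 4.99 in the colon. Tissue fits with this level therefore cannot separate the tissue difference from enterocyte content. The values of ODC1 (-0.50, adjusted p 0.105), SLC7A2 (0.55, 0.275), SAT1 (-0.28, 0.261), AMD1 (0.14, 0.463), DDAH1 (-0.13, 0.773) and NOS3 (-0.01, 0.981) did not pass the edgeR test. At an unadjusted p under 0.05 there were 5 genes, against 40.1% of all genes, and DESeq2 called 4, adding NOS1 and NOS2, against 34.1% of all genes. The median log2 difference of the 10 genes was 0.06, beside -0.03 over all genes tested.

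The tissue comparison of SLC7A1 passed with each of the 24 libraries left out in turn, at -0.65 to -0.47 on the log2 scale and adjusted edgeR p values of 0.0014 to 0.0274. With the same 2 marker levels in the model, where tissue and enterocyte content cannot be separated, it was -0.24 with an adjusted edgeR p of 0.736. DDAH2 passed in 14 of 24 such omissions. It missed the threshold, at adjusted edgeR p values of 0.0517 to 0.0722, without ileum LF 1, LF 2, LN 1, LN 2, HF 1 or HN 1, or colon LF 2, LN 1, HF 2 or HN 1. Without both colon libraries low in SLC26A3, DDAH2 was 0.67 higher in the colon with an adjusted edgeR p of 0.127, and with the 2 marker levels in the model its sign turned, to -0.14 with an adjusted p of 0.906.

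Leaving out ileum LN 3 changed the tissue calls of 3 genes. Without it, 5 of the 10 genes passed the edgeR test, where 32.9% of all genes did. SLC7A2 was 1.05 higher in the colon on the log2 scale (adjusted p 0.00691), NOS1 2.03 higher (0.00978) and NOS3 0.42 higher (0.0342), and SLC7A1 and DDAH2 passed as before. LN 3 held the highest ileum level of SLC7A2, NOS1 and NOS3, so larger colon differences without it were fixed in advance. NOS1 also passed without ileum HF 2 (1.84, adjusted edgeR p 0.0331), and ODC1 without colon HN 3 (-0.68, 0.0152). NOS2 passed without ileum LF 1 (1.70, adjusted edgeR p 0.0232), HF 2 (1.57, 0.0378) or HN 2 (1.61, 0.0288). Without all 3 of these FABP6-high libraries NOS2 was 2.42 higher in the colon (adjusted edgeR p 0.00113), and DDAH2 then missed the threshold (1.06, 0.0569). The 3 libraries held the highest ileum NOS2 levels, so a larger NOS2 difference without them was fixed in advance. They were also the only ones in which FABP6 and SLC10A2 bore out the ileum label. Without those 3 and LN 3 together, SLC7A2 was 1.13 higher (adjusted edgeR p 0.0138), NOS1 2.64 (0.00507), NOS2 2.50 (0.00154) and DDAH2 1.37 (0.0093), and SLC7A1 was -0.59 (0.00581).

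**Figure D3:**
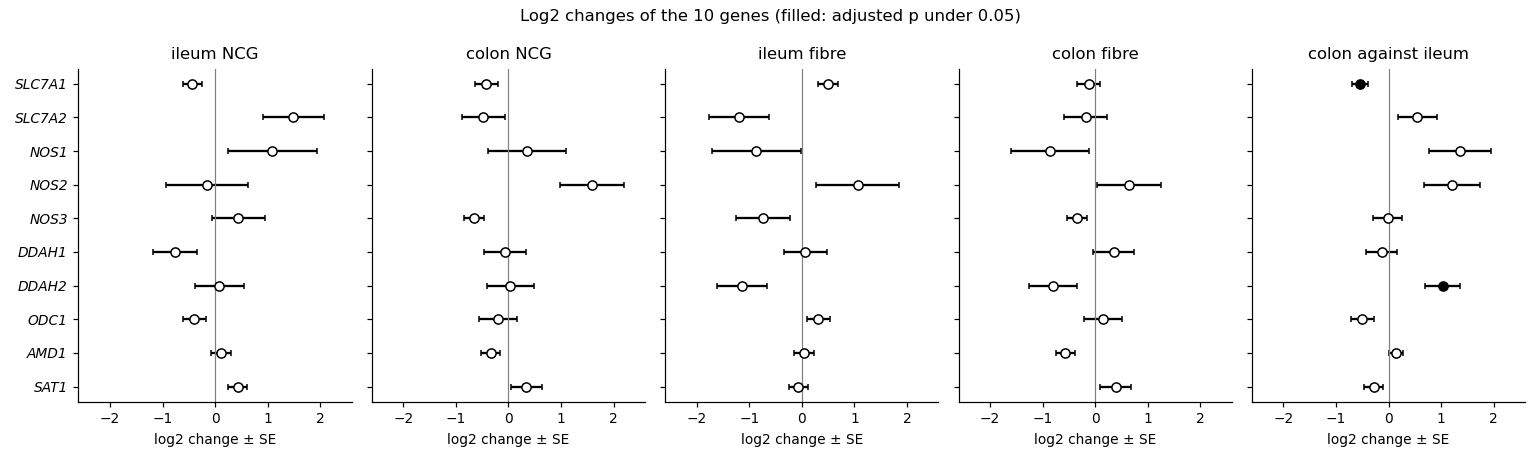
Log2 change with its SE for each of the 10 genes in 5 comparisons: NCG in the ileum, NCG in the colon, fibre in the ileum, fibre in the colon, and colon against ileum; filled points passed the edgeR test at an adjusted p of 0.05. The filled points are SLC7A1 (-0.55) and DDAH2 (1.03) in the tissue comparison.

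NCG was compared as LN and HN together against LF and HF together, within each tissue. In the ileum none of the 10 genes passed the edgeR test (0 of 10, against 5.85% of 15103 genes, of which 5.42% were higher and 0.430% lower). DESeq2 called 0 of them, giving no adjusted p for SLC7A2 and NOS1, and 3 had an unadjusted edgeR p under 0.05, against 21.5% of all genes. These 3 were SLC7A2, SLC7A1 and SAT1. SLC7A2 had a log2 difference of 1.49 ± 0.58 (edgeR adjusted p 0.174), which was 0.48 (adjusted p 0.429) without LN 3. SLC7A1 was -0.43 ± 0.19 (edgeR adjusted p 0.218) and -0.28 (0.142) without LN 3. SAT1 was 0.43 ± 0.18 (edgeR adjusted p 0.208). The others were NOS1 at 1.09 ± 0.85, NOS2 at -0.15 ± 0.78, NOS3 at 0.44 ± 0.51, DDAH1 at -0.76 ± 0.41, DDAH2 at 0.08 ± 0.47, ODC1 at -0.39 ± 0.22 and AMD1 at 0.11 ± 0.20. Without LN 3 the signs of NOS1 (-0.28), NOS3 (-0.44) and DDAH2 (-0.47) turned, and without HF 2 NOS1 was 2.03. With smooth muscle and enterocyte marker levels in the model SLC7A2 passed the edgeR test, at 1.60 with an adjusted p of 0.0319, with LN 3 included. That fit called 12.1% of all genes, and it was not repeated without LN 3.

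In the colon none of the 10 genes passed the edgeR test for NCG (0 of 10), where the share of all 15075 genes called was 0 as well. Unadjusted edgeR p values under 0.05 were found for 2 of the 10, NOS2 and NOS3, against 12.4% of all genes, and DESeq2 called 1, NOS3, against 3.30% of all genes. NOS2 had a log2 difference of 1.59 ± 0.62 (edgeR adjusted p 0.340), which was 0.96 without HN 3, and NOS3 of -0.65 ± 0.19 (edgeR adjusted p 0.264, DESeq2 adjusted p 0.0223). Colon means of NOS3 were 14.8 CPM on LF and 6.32 on LN, but 8.34 on HF and 7.32 on HN. The pooled NOS3 difference thus lay mostly between LF and LN. SLC7A1 was -0.42 ± 0.22, with an edgeR adjusted p of 0.466, and -0.28 without LF 3. The NCG difference in the colon minus that in the ileum passed the edgeR test for 0 of 10 genes, with an unadjusted p under 0.05 for 1, SLC7A2, and 0 by DESeq2. This SLC7A2 value was -2.01, and -1.015 without ileum LN 3. The share of all genes called there was 0 by edgeR, 0.0638% by DESeq2 and 2.99% unadjusted.

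Fibre was compared as HF and HN together against LF and LN together. In the ileum 0 of the 10 genes passed the edgeR test and 0 by DESeq2, which gave no adjusted p for SLC7A2 and NOS1; the share of all genes called was 0 and 0.00662%. An unadjusted edgeR p under 0.05 was found for 2, against 5.26% of all genes: SLC7A1 at 0.50 ± 0.19 and DDAH2 at -1.14 ± 0.48, both with an adjusted p of 0.802. Without LN 3 the DDAH2 value was -0.60. In the colon 0 passed the edgeR test and 0 by DESeq2, where the share of all genes called was 0 and 0.139%. There AMD1 alone of the 10 had an unadjusted edgeR p under 0.05, at -0.57 ± 0.18 with an adjusted p of 0.836, against 4.59% of all genes. The fibre difference in the colon minus that in the ileum passed the edgeR test for 0 of 10, with 2 at an unadjusted p under 0.05 (SLC7A1 at -0.63 and AMD1 at -0.62) against 2.79% of all genes, and 0 by DESeq2, which called 0.0319% of all genes.

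Whether NCG acted alike on the 2 fibre levels was tested as an interaction, the HN minus HF difference less the LN minus LF difference. In the ileum 0 of 10 genes passed the edgeR test, 0 had an unadjusted p under 0.05 (4.45% of all genes had) and 0 were called by DESeq2 (0.172% of all genes were), again with no adjusted p for SLC7A2 and NOS1, where the share of all genes called by edgeR was 0. SLC7A1, whose LN libraries lay apart in the ileum, had an interaction of 0.75 ± 0.37 (edgeR p 0.0703, adjusted p 0.872), and of 0.45 without LN 3. In the colon 0 of 10 passed the edgeR test and 0 by DESeq2 (0 and 0.444% of all genes), and 3 had an unadjusted p under 0.05, against 15.0% of all genes. NOS2 had the largest value of the 10, -3.66 ± 1.24: its colon mean was 3.46 CPM on LF and 35.9 on LN, but 19.7 on HF and 16.4 on HN. DDAH2 was 2.50 ± 0.91 and NOS3 1.03 ± 0.38, and all 3 had an edgeR adjusted p of 0.327. Leaving out colon HF 3 moved the NOS2 value to -2.39, and leaving out HN 1 moved the DDAH2 value to 1.49. The colon smooth muscle sums ran from 29570.5 to 106856 CPM on LF, 1463 to 58202 on LN, 1761 to 2515 on HF and 1663 to 97863 on HN. With smooth muscle and enterocyte marker levels in the model, the colon interaction was 0.16 ± 0.52 for DDAH2, 0.40 ± 0.39 for NOS3 and -2.86 ± 1.43 for NOS2.

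Family members were also set against each other within a library, as shares of their summed FPKM. SLC7A2 made up 30.3 ± 21.1% (SD, n = 12) of SLC7A1 and SLC7A2 in the ileum and 50.3 ± 16.2% (n = 12) in the colon. The difference of 20.0 percentage points had a two-sided permutation p of 0.0161, and 0.0482 after Benjamini-Hochberg adjustment over the 3 shares compared. From counts not divided by length it was 16.8 points, with an adjusted permutation p of 0.111. Ileum LN 3, at 92.7%, was the highest library of all, and the other 11 ileum libraries lay at 11.97 to 36.8%. Without LN 3 the difference was 25.7 points with an adjusted permutation p of 0.00018. The adjusted p passed in 3 of 24 omissions of a library, those of ileum LN 3, colon LF 3 and colon HN 3, and reached 0.0912 in the others.

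NOS3 had the highest FPKM of the 3 synthases in 9 of 12 ileum libraries and in 7 of 12 colon libraries, and NOS2 in the other 3 and 5. In the ileum the median shares were 76.8% for NOS3 and 17.7% for NOS2; in the colon they were 46.1% and 38.7%. NOS1 made up 7.49 ± 4.33% in the ileum and 14.5 ± 12.8% in the colon, a difference of 7.03 points with an adjusted permutation p of 0.107. Its shares above 20% were colon HN 1 at 42.3%, LF 2 at 33.4% and LF 1 at 25.5%, all with large smooth muscle and enteric neuron sums.

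DDAH1 made up 74.5 ± 18.7% of DDAH1 and DDAH2 in the ileum and 59.7 ± 24.2% in the colon. The difference of -14.8 points had a two-sided permutation p of 0.107, also 0.107 after adjustment. Without ileum LN 3, where DDAH1 was at 27.7%, it was -19.1 points with an adjusted permutation p of 0.0348.

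**Figure D4:**
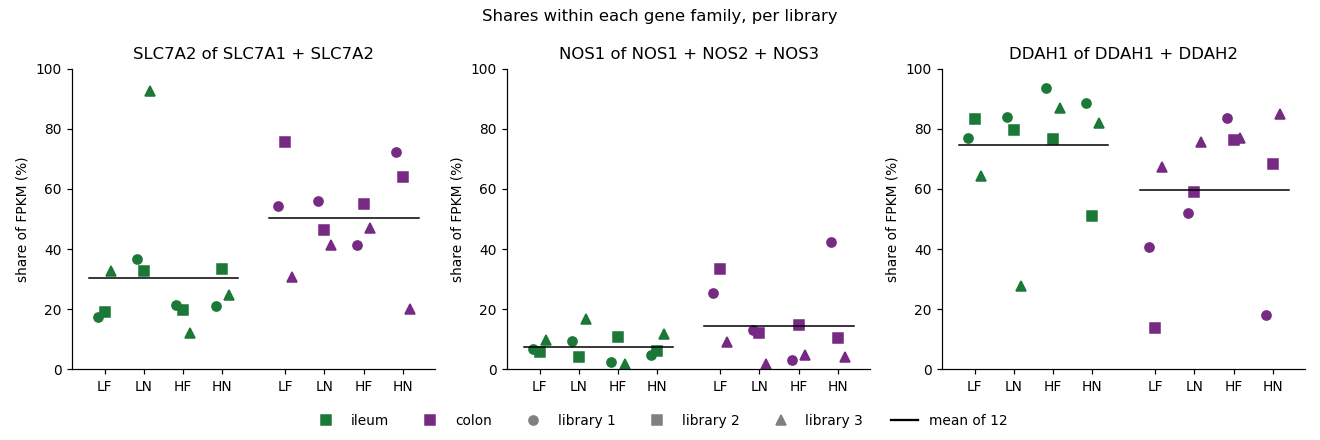
Share in percent of family FPKM taken by SLC7A2 (of SLC7A1 and SLC7A2), NOS1 (of the 3 synthases) and DDAH1 (of DDAH1 and DDAH2) in each library, by tissue, with a line for the mean of 12 libraries. The SLC7A2 share averages 30.3% in the ileum, with LN 3 at 92.7%, and 50.3% in the colon.

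The likeness of other genes to each of the 10 was measured as Pearson's r of log2 CPM over the 24 libraries, with each tissue's mean subtracted, and the 3 nearest of 15675 genes were taken. These values describe libraries that share cell content and depth, and carry no p. NOS3 was nearest to ESAM (r = 0.95), CDH5 (0.94) and NPR1 (0.93), of which ESAM and CDH5 are endothelial junction proteins. SLC7A1 was nearest to NOLC1 (0.93) and NOL9 (0.92), both nucleolar proteins, and to LOC110257391 (0.92). ODC1 was nearest to LOC100513542 (0.92), to NOL6 (0.91), a nucleolar protein, and to EEF1E1 (0.91), a part of the aminoacyl-tRNA synthetase complex.

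DDAH2 had the closest neighbours of the 10 genes: ARHGEF40 (r = 0.98), CD59 (0.97), the membrane inhibitor of complement, and FXYD7 (0.97). DDAH1 was nearest to KIAA0513 (0.95), SHMT1 (0.95), a serine and glycine enzyme of the cytosol, and KCNE3 (0.94), a potassium channel subunit of intestinal epithelium. SLC7A2 was nearest to EBF2 (0.91), a transcription factor of brown and beige fat precursors, FGF2 (0.90) and AOX1 (0.90). NOS1 was nearest to SORCS1 (0.89), SEMA6C (0.89) and MEOX2 (0.88). NOS2 was nearest to HAPLN3 (0.85), TNFRSF9 (0.83), a receptor of activated T cells, and NUGGC (0.83). SAT1 was nearest to KHNYN (0.93), PARP12 (0.93), an interferon-induced gene, and KIFC2 (0.92). AMD1 had the least close neighbours, EIF4E (0.83), the cap-binding translation factor, PAK1IP1 (0.79) and DHX15 (0.76).

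Among the 10 genes themselves, on the same measure, the closest pair was NOS1 and DDAH2 (r = 0.80), followed by SLC7A2 with NOS3 (0.76) and with NOS1 (0.74), 3 genes whose highest ileum value was LN 3. DDAH1 and ODC1 had an r of 0.69 and SLC7A1 and ODC1 one of 0.65. The most opposed pairs were DDAH2 and SAT1 (-0.74), SLC7A1 and SLC7A2 (-0.70) and NOS1 and DDAH1 (-0.67).

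Of 57 other genes of these pathways, 56 were in the table, and 54 were tested between tissues. The edgeR test called 5 of them higher and 20 lower in the colon, where it called 12.5% of all genes higher and 15.9% lower. With smooth muscle and enterocyte marker levels in the model, SLC7A9 (-5.03, edgeR adjusted p 0.0271) and SMS (-1.18, 0.0449), which makes spermine and is named after its values were seen, were the only ones of these to pass. That fit called 3.85% of all genes. As the enterocyte level did not overlap between tissues, values with the marker levels, here and below, cannot separate tissue from enterocyte content. Of 8 genes of cationic amino acid transport, 1 was higher and 5 were lower. SLC7A9, the dibasic amino acid exchanger of the brush border, averaged 86.9 ± 39.7 CPM (SD, n = 12) in the ileum and 0.592 ± 0.728 CPM in the colon, a log2 change of -7.37 (edgeR adjusted p 2.41e-08). SLC7A7, its counterpart of the basolateral membrane, averaged 167 ± 74.7 and 26.4 ± 10.1 CPM, a log2 change of -2.72 (edgeR adjusted p 9.61e-07), which was -0.38 (0.722) with the marker levels in the model. SLC6A14, a broad transporter of neutral and cationic amino acids, went the other way, from 1.31 to 18.2 CPM in the ileum (median 3.05) to 1.09 to 55.7 CPM in the colon (median 41.2), a log2 change of 2.90 (edgeR adjusted p 0.000354), and 3.54 (0.146) with the marker levels.

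Of 6 genes of arginine use outside nitric oxide, 4 were lower and 1 was higher in the colon. OAT, which links ornithine to glutamate and proline, averaged 1163 ± 439 CPM in the ileum and 128 ± 32.5 CPM in the colon, a log2 change of -3.21 (edgeR adjusted p 1.64e-08), and -1.62 (0.0844) with the marker levels in the model. Among 10 genes for synthase cofactors and regulators 3 were lower, among 7 for sources and removal of methylarginines 3 were lower, and among 7 targets of nitric oxide 2 were higher. Of all genes tested, 15.9% were lower and 12.5% higher in the colon, and these lists are small. PRKG1, the cyclic GMP-dependent kinase of smooth muscle, was 1 of these targets, at 11.8 ± 14.3 CPM in the ileum and 64.3 ± 99.9 CPM in the colon, a log2 change of 1.89 (edgeR adjusted p 0.0265). PRKG1 missed the threshold without colon LF 2 (adjusted p 0.0676), LN 1 (0.0563) or HN 1 (0.0938), and was 0.80 (0.234) without both colon libraries low in SLC26A3.

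On the polyamine side, 1 of 2 other synthesis genes was lower in the colon, as were 2 of 4 regulators, 1 of 3 catabolic genes and 1 of 3 transporters, while 0 of 4 hypusination genes passed (0 also had an unadjusted edgeR p under 0.05, and DESeq2 called 0). Of all genes tested, 15.9% were lower and 12.5% higher by edgeR. An unadjusted edgeR p under 0.05 was found for 40.1%, and DESeq2 called 34.1%. ATP13A3, a polyamine-transporting ATPase, was the 1 transporter that was higher, at 73.9 ± 25.1 CPM in the ileum and 130 ± 34.2 CPM in the colon, a log2 change of 0.81 (edgeR adjusted p 2.09e-05), and 0.80 (0.143) with the marker levels in the model.

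For NCG in the ileum, 3 of the 54 other pathway genes passed the edgeR test, all higher, against 5.42% of all genes. ATP13A3 rose by 0.71 ± 0.14 on the log2 scale (edgeR adjusted p 0.0147) and missed the threshold with 1 library left out, HF 3 (0.0536). EIF5A2, an isoform of the hypusinated translation factor, rose by 1.23 ± 0.29 (edgeR adjusted p 0.0297) and missed it without any 1 of LF 1, LF 2, all 3 HF libraries, HN 1 or HN 2 (0.0549 to 0.0877). GUCY1A2, a subunit of the nitric oxide receptor, rose by 1.81 ± 0.43 (edgeR adjusted p 0.0330) and passed in only 2 of 12 omissions, those of LN 1 and LN 2. Without the 3 FABP6-high libraries neither EIF5A2 (1.19, edgeR adjusted p 0.142) nor GUCY1A2 (1.53, 0.142) passed. In the colon 52 of the genes were tested for NCG, fibre and their interaction, and edgeR called 0 in each, with 7, 1 and 10 at an unadjusted p under 0.05 (12.4%, 4.59% and 15.0% of all genes) and 1, 0 and 0 by DESeq2 (3.30%, 0.139% and 0.444% of all genes). For fibre and the interaction in the ileum edgeR also called 0 of 54, with 2 and 3 at an unadjusted p under 0.05 (5.26% and 4.45% of all genes) and 0 by DESeq2 in both.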

How the data were processed

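Poly(A) RNA of 24 libraries was captured on oligo(dT) beads, primed at random and sequenced as read pairs, per the labels' protocols. Per the submitters' processing notes the tools were HISAT2 2.1.0, fastp 0.22.0 and HTSeq 0.9.1, and the build was Sscrofa11.1; settings and strand handling were not given in the sources used here. The deposited table holds whole, unnormalised read counts per gene, together with FPKM computed by the authors from the same counts (largest relative difference 2.1e-07) and the gene length, another unit, per the file headers. Samples were grouped by tissue and diet labels. All 20674 genes were matched to RefSeq Sscrofa11.1 by gene ID.

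Counts were tested with edgeR 4.0.16 (R 4.3.3): filterByExpr, TMM scaling, quasi-likelihood F-tests on group means (12 libraries per tissue, or all 24 between tissues), Benjamini-Hochberg adjustment over all genes tested, threshold 0.05. An SE is the log2 change divided by the square root of F. CPM values are TMM-scaled over all 24 libraries, and log2 CPM for likeness used a prior count of 2. Ratios of FPKM within a family were compared by two-sided permutation of libraries (100000 resamples, SciPy 1.17.1). Scripts were tested on simulated data. Alternatives were DESeq2 1.42.0, median-of-ratios scaling, no filter, a replicate block, 2 marker covariates (mean log2 CPM of smooth muscle and of enterocyte markers), libraries left out singly, and ileum libraries with FABP6 above 500 CPM left out. Omission of colon libraries with SLC26A3 under 100 CPM, and of ileum LN 3 with the FABP6-high libraries, was chosen after seeing the data.

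The 10 genes, the 57 other pathway genes, the markers and the thresholds were chosen with earlier results of these data known. Besides the 10 genes, up to 3 pathway genes called in each direction per comparison, by smallest adjusted p, and the 3 genes most like each of the 10 were named; markers were named to check labels, and genes in the closing section where an alternative turned their sign. PQLC2, GUCY1A3 and GUCY1B3 were matched under these older symbols, and NOS1AP was not found. Marker sums are summed CPM over a list. A marker of the colon list is not reported here.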

Additional observations from a re-analysis of the deposited data

How the results depend on the processing

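The number of the 10 genes called was the same under median-of-ratios scaling and without the filter in every comparison. With DESeq2 the genes called were 1812 for NCG in the ileum (884 by edgeR), 1 for fibre and 26 for the interaction there, 497, 21 and 67 in the colon, and 10 and 5 for the tissue differences of NCG and fibre (0 by edgeR in all but the first). Of the 10, DESeq2 called 1 for NCG in the colon (3.30% of all genes) and 4 between tissues (34.1% of all genes). With the 2 marker covariates the genes called were 1831 and 849 for NCG in the ileum and colon and 604 between tissues (4453 without). Of the 10, 1 was called for NCG in the ileum (12.1% of all genes) and 0 between tissues (3.85% of all genes). The covariates turned the sign of the colon against ileum values of DDAH2 (-0.14), SLC3A1 (1.43), SLC3A2 (0.43), ARG1 (0.0702), AGMAT (0.82), QDPR (0.62), PRKG1 (-1.18), PRMT7 (0.30), AGXT2 (2.98) and SLC18B1 (0.54), none of which passed with them; the cause was not tested. Among the 10 genes they also turned the sign of SLC7A2 (-0.705), NOS1 (-0.89), NOS2 (-1.24), NOS3 (0.77), DDAH1 (1.97), AMD1 (-0.05) and SAT1 (0.13), called under neither setting. The enterocyte level did not overlap between the tissues, so the tissue values with the covariates cannot separate tissue from enterocyte content. Without the colon libraries low in SLC26A3, 464 genes were called for NCG in the colon (0 with them) and 1 of the 10 between tissues (25.3% of all genes). Without ileum LN 3 and the FABP6-high libraries, 2 genes were called for fibre and 1 for the interaction in the ileum, and 5 of the 10 between tissues (30.3% of all genes).

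With single libraries left out, genes called for NCG ran from 514 to 958 in the ileum and from 0 to 292 in the colon (292 without LF 2), and those between tissues from 3557 to 5208. Of the 10, those called between tissues ran from 1 to 5, and the NOS3 value from -0.12 to 0.42, the latter without ileum LN 3. The SLC7A2 share difference ran from 17.7 to 25.7 points and the DDAH1 share difference from -19.1 to -10.7. The SLC7A2 share difference was 16.8 points (adjusted permutation p 0.111) from counts not divided by length.

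The replicate numbers showed no consistent pairing of the libraries. Deviations of libraries with the same number correlated at -0.367 to 0.307 between tissues (over 0.1 in 5 of 12 pairs), -0.503 to 0.809 within the colon (7 of 18) and -0.515 to 0.703 within the ileum (8 of 18). As libraries also differ in marker content, this check cannot decide whether those with the same number share a sow. With a replicate block 1 of the 10 was called between tissues, SLC7A1, against 19.1% of all genes. DDAH2 was 1.06 with an adjusted edgeR p of 0.115, and PRKG1 had an adjusted edgeR p of 0.198. With the block EIF5A2 for NCG in the ileum had an adjusted p of 0.0576, and the SLC7A2 share difference 20.0 points with an adjusted p of 0.132.

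Depth limits NOS1 most, with 4 counts in its lowest library. A sign that turned for a value called under neither setting was not counted as a reversal.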
